A study of Saccharomyces cerevisiae with 8 samples.

Results

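Spotted cDNA arrays read in 2 colours set each of 2 hybrid yeast strains against a mix of its own parental lines, and the comparison described here asks where the departure of hybrid Sce2965 from its mix differed from the departure of hybrid Sce2950 from its own. All 8 arrays of the series enter, 4 of Sce2965 and 4 of Sce2950, grouped by the source of the second channel, with the hybrid in Cy5 on 2 arrays and in Cy3 on 2 arrays of each. On the Sce2965 arrays the mix was made from lines sce2713 and sce2902. On the Sce2950 arrays it was made from lines sce2709 and sce2898. The labels give all strains as Saccharomyces cerevisiae grown from a colony in 0.5xYPD, a rich glucose medium, to early log phase, and they give neither the proportions of the mixes nor the genotype or ploidy of any strain. The series text describes the parents of a hybrid as lines adapted to different environments. It sets the question as the effect on expression of joining such genomes in a cell, apart from the expression changes of adaptation. Yeast Y6.4k4 arrays carry 6528 features, each printed as 2 spots with successive numbers, and 6526 features were tested.

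A hybrid carries the alleles of both parents in a shared nucleus, so that regulators from either parent can act on both copies of a gene. If the alleles kept their parental activity and the mix were balanced, a hybrid would match the mix of its parents, and a log2 ratio of hybrid over mix would be 0. A gene above or below that level is described as non-additive. The difference between the hybrids used here subtracts the log2 ratio of Sce2950 from that of Sce2965, so a value of -1 means that the ratio was 2-fold lower in Sce2965. Such a difference can arise in any of 4 RNA pools, the hybrids or the mixes.

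The name field of the array files was filled for 0 spots, so features are given by spot number and carry no gene name or function. By the leading digits of their slide numbers, the slides fell into 3 series, called early or later here. The later series held replicates 3 and 4 of both hybrids, while each of the early series held replicates 1 and 2 of 1 hybrid. Median spot intensity on an array lay between 159.4 and 454.8 in the hybrid channel and between 115.5 and 312.7 in the mix channel. The log2 ratios of duplicate spots correlated at 0.922 to 0.938 across features on the later slides and at 0.621 to 0.747 on the early slides, so the later slides measured each feature more reproducibly. No 2 arrays held identical intensities (0 pairs).

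There were 26 features whose log2 ratio to the mix differed between Sce2965 and Sce2950 past an adjusted p of 0.05 in limma. They made up 0.398% of the features tested. Of these, 21 were lower in Sce2965 (0.322% of features) and 5 were higher (0.0766%). The 21 differed by between -2.21 and -0.89 on the log2 scale, with a median of -1.64, a fold of 3.12. The 5 differed by between 0.91 and 1.11, with a median of 1.02, a fold of 2.03. Over all features tested the median difference was 0.00, and 50.8% were higher in Sce2965. Before adjustment, 221 features (3.39%) had a p under 0.05.

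The count depended on which arrays carried it. Leaving out 1 array gave between 10 and 25 features, the lowest without replicate 1 of Sce2950 and the highest without replicate 2 of Sce2965. It was 11 when replicate 4 of either hybrid was left out, 15 or 16 when replicate 3 of Sce2965 or of Sce2950 was, and 17 when replicate 2 of Sce2950 was. In 4 of these 8 fits, without replicate 4 of Sce2965 or replicate 1, 3 or 4 of Sce2950, 0 features were called higher in Sce2965. With slide series as a fixed block the count was 0, with 52 features at an unadjusted p under 0.05. Each early series held 1 hybrid, so this fit takes the difference from the later slides. The called features had the same estimates there as on the later slides alone, with medians of -1.72 and 0.95. For them these fits differ in the estimate of error. The later slides fitted alone gave 125 features, or 1.92% of 6498, and the early slides alone gave 0, with 90 at an unadjusted p under 0.05. The split into higher and lower moved with the scaling: loess within print blocks gave 12 higher and 20 lower, while median centring gave 0 higher and 15 lower.

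The largest difference in size lay at spots 6263 and 6264. In Sce2965 the log2 ratio to the mix was -0.79, -0.79, -1.59 and -0.92 in replicates 1 to 4, against 1.26, 1.25, 0.65 and 1.57 in those of Sce2950. All 4 arrays of Sce2965 were thus below their mix and all 4 of Sce2950 above theirs, with a gap between the groups larger than the spread within either. The means were -1.02 ± 0.381 in Sce2965 and 1.18 ± 0.385 in Sce2950 (SD, n = 4 each). The difference was -2.21 (SE 0.221; 95% interval -2.69 to -1.72; limma adjusted p = 0.0011), or 4.61-fold lower in Sce2965. With slide series as a fixed block it was -2.36, the value of the later slides (limma adjusted p = 0.218). On the early slides alone it was -2.05, and in the authors' deposited table of log2 ratios -1.83 by the same limma model. In each of these the call was lost.

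The feature at spots 7349 and 7350 had nearly the same pattern. Its log2 ratio was -0.64, -0.84, -1.78 and -0.76 in replicates 1 to 4 of Sce2965, against 1.15, 1.23, 0.72 and 1.66 in those of Sce2950. Again the groups did not overlap, and replicate 3 was the lowest array of each hybrid. The means were -1.01 ± 0.526 in Sce2965 and 1.19 ± 0.387 in Sce2950 (SD, n = 4 each). The difference was -2.20 (SE 0.228; 95% interval -2.70 to -1.69; limma adjusted p = 0.00123), or 4.58-fold lower in Sce2965. The call was lost with slide series as a fixed block, at -2.46 (limma adjusted p = 0.218), on the early slides alone at -1.93, with loess within print blocks at -1.46, and in the authors' deposited table at -1.26 by the same model.

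Among the 5 features called higher in Sce2965, spots 11281 and 11282 had the largest difference. The log2 ratio was 0.79, 1.05, 0.78 and 0.71 in replicates 1 to 4 of Sce2965, against -0.13, -0.36, -0.30 and -0.33 in those of Sce2950. The Sce2965 arrays stood well above their mix, and the Sce2950 arrays a little below theirs. The means were 0.83 ± 0.15 in Sce2965 and -0.28 ± 0.101 in Sce2950 (SD, n = 4 each). The difference was 1.11 (SE 0.155; 95% interval 0.77 to 1.45; limma adjusted p = 0.0107), or 2.16-fold higher in Sce2965, and the call was lost in 10 of 29 other settings, with slide series as a fixed block among them (1.06; limma adjusted p = 1.0).

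Spots 6163 and 6164 stood above the mix in Sce2965 and near it in Sce2950. The log2 ratio was 1.01, 0.99, 1.11 and 1.11 in replicates 1 to 4 of Sce2965, against 0.11, -0.21, 0.29 and -0.29 in those of Sce2950. The Sce2950 arrays lay on either side of 0, above it with the hybrid in Cy5 and below it with the hybrid in Cy3. The means were 1.06 ± 0.0652 in Sce2965 and -0.02 ± 0.273 in Sce2950 (SD, n = 4 each). The difference was 1.08 (SE 0.167; 95% interval 0.71 to 1.45; limma adjusted p = 0.0201), or 2.11-fold higher in Sce2965, with the call lost in 15 of 29 other settings, again with slide series as a fixed block among them (1.11; limma adjusted p = 1.0).

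The difference is made of the ratios of both hybrids, and the called features fell into different kinds by where each hybrid stood. Against their own mixes, 28 features passed in Sce2965 (0.429% of features; 13 above, 0.199%, and 15 below, 0.23%) and 12 in Sce2950, all above (0.184%). In Sce2950 the count below the mix was 0 in limma, with 148 features (2.27%) of either sign at an unadjusted p under 0.05. In Sce2965, 362 features (5.55%) had an unadjusted p under 0.05. Of the 21 features lower in Sce2965, 10 passed against the mix in both hybrids, 3 in Sce2965 alone, 1 in Sce2950 alone and 7 in neither. Of the 5 features higher in Sce2965, 4 passed in Sce2965 alone and 1 in neither. These counts describe the parts of the difference and do not bear on its size.

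Opposite signs on all 8 arrays, below the mix in Sce2965 and above it in Sce2950, were found in 18 of the 21 features, where 28 of all features tested (0.429%) showed this order. The mean log2 ratio of the 18 ranged from -1.11 to -0.38 in Sce2965 and from 0.31 to 1.19 in Sce2950. The size in Sce2965 over the size in Sce2950 had a median of 0.891 and ranged from 0.681 to 3.25, so the departures were close in size at some features and unequal at others. The reverse order, above the mix in Sce2965 and below it in Sce2950, was found in 3 of the 5 features and in 21 of all features (0.322%). Signs and sizes here follow in part from the choice of features by their difference.

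The other 5 called features departed mainly in 1 hybrid. A pair of features averaged -0.95 ± 0.147 and -0.93 ± 0.379 in Sce2965, against 0.24 ± 0.255 and 0.07 ± 0.107 in Sce2950 (SD, n = 4 each), and passed against the mix in Sce2965 alone. Another averaged 0.13 ± 0.317 in Sce2965 and 1.26 ± 0.192 in Sce2950 (SD, n = 4 each) and passed in Sce2950 alone. The features at 1.06, given above, and at 0.98 ± 0.123 in Sce2965, against -0.04 ± 0.159 in Sce2950 (SD, n = 4 each), were above the mix in Sce2965 and near it in Sce2950. A call in 1 hybrid and not in the other is no test of a difference, which for these 5 features was tested directly, with limma adjusted p between 0.0129 and 0.0368.

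The plot of called features by array shows every value behind these counts. Among the 21 features, the median log2 ratio was -0.76, -0.79, -1.01 and -0.80 in replicates 1 to 4 of Sce2965, against 0.91, 1.00, 0.47 and 1.12 in those of Sce2950. At least 20 of the 21 were below the mix on each array of Sce2965 and at least 20 above it on each array of Sce2950. Replicate 3, a later slide with the hybrid in Cy5, had the lowest median in both hybrids. Among the 5 features, the median was 0.97, 0.99, 0.78 and 0.71 in Sce2965, against -0.13, -0.21, -0.08 and -0.29 in Sce2950. Arrays of Sce2965 and Sce2950 did not overlap at any of the 26, a separation found with Sce2965 higher at 74 of all features (1.13%) and with Sce2965 lower at 85 (1.3%).

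**Figure D1:**
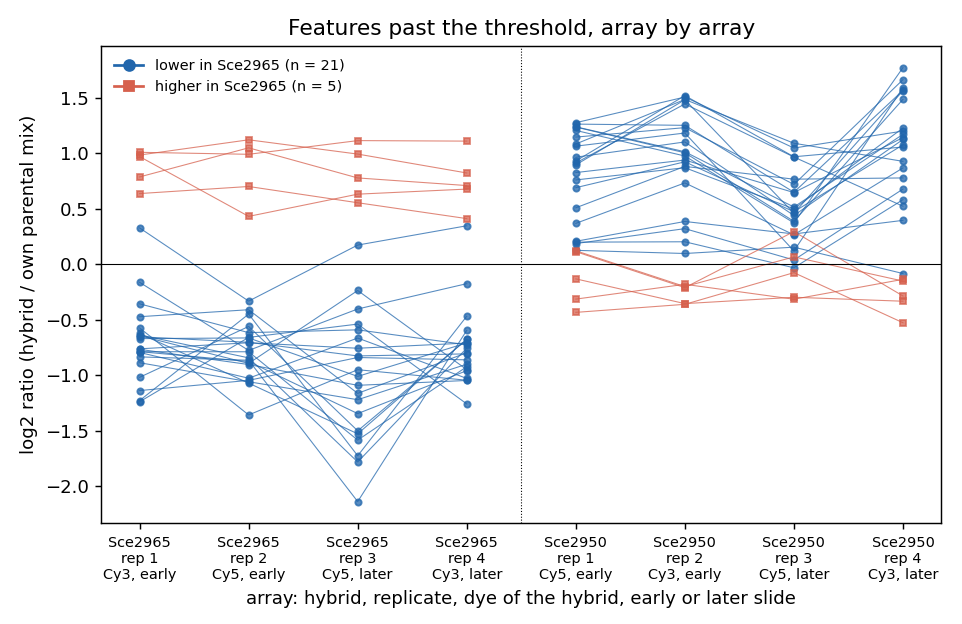
Log2 ratio of hybrid over mix (vertical axis) on each array, Sce2965 on the left and Sce2950 on the right (horizontal axis), for the called features; a line joins the values of 1 feature, circles for the 21 lower and squares for the 5 higher in Sce2965. Medians of the 21 lie between -1.01 and -0.76 on the Sce2965 arrays and between 0.47 and 1.12 on the Sce2950 arrays.

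The called features were bright. When features were divided into 5 groups of equal number by mean log2 intensity, 0 of the called ones fell in the dimmest 3 groups, 1 in the fourth (0.0766%) and 25 in the brightest (1.92%). The brightest group began at a log2 intensity of 8.71, where the median of all features was 7.64. The 21 lower features had a median of 11.1 and the 5 higher features ranged from 10.1 to 12.4. The SD of the differences over features was 0.338 in the brightest group and between 0.189 and 0.218 in the other groups, while the median SE was 0.187 and between 0.204 and 0.212. Differences were thus more spread in the brightest group although its median error was slightly smaller. Among the called features the SE reached 0.330. The median difference of the brightest group was 0.00. The part of background light and of the offset added to each channel in the narrower spread of dim features was not tested.

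**Figure D2:**
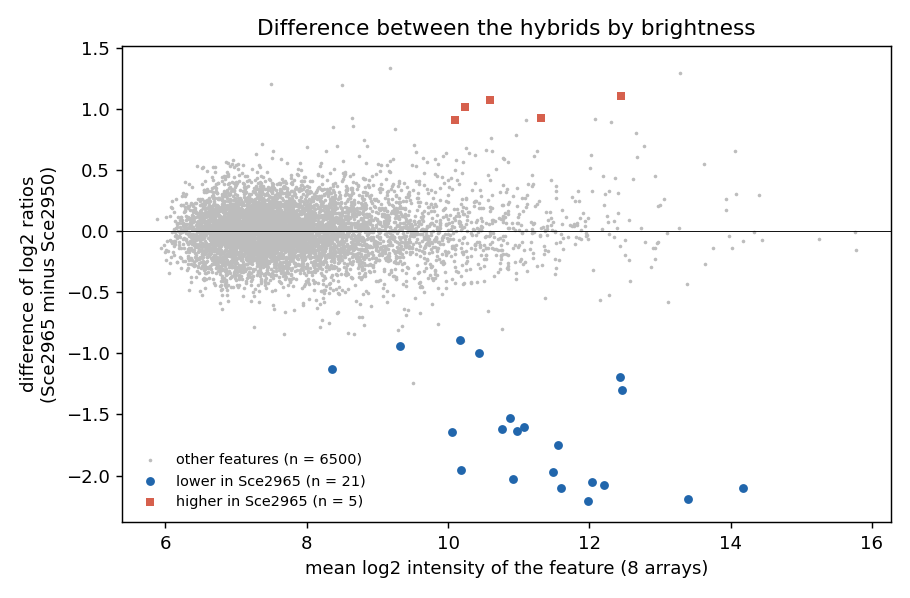
Difference of the log2 ratio, Sce2965 minus Sce2950 (vertical axis), against mean log2 intensity (horizontal axis) for 6526 features, with the called ones marked. The points spread around 0 at all intensities, and 25 of the 26 called features lie above a log2 intensity of 8.71.

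The 26 features lay in 18 of the 48 print blocks, some of which held several of them. By feature number, 0 directly followed another called feature, and neighbours in other rows were not checked. Close pairs in the same block were present. Spots 139 and 140 had a difference of -2.05, and spots 143 and 144 had -1.97. Spots 11873 and 11874 had -1.64, and spots 11881 and 11882 had -2.03. The part of position on the slide in this was not tested. With loess within print blocks, called differences shrank to as little as 0.487 of their size. The median difference of a print block ranged from -0.21 to 0.23, where the smallest called difference was 0.89. These medians cover all features of a block, most of them dimmer than the called ones. They therefore do not bound a block effect at bright spots.

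For most features the data bound the difference of these ratios without showing that it is 0. The 95% interval had a median half-width of 0.45 on the log2 scale, a fold of 1.37. It lay within -1 to 1 for 6138 features (94.1%), and within -0.5 to 0.5 for 1595 (24.4%). A 2-fold difference between the hybrids was therefore outside the interval for most features tested, but a difference of 0.5 was inside it for most. The central 90% of the estimates lay between -0.34 and 0.34.

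Early and later slides gave the called features similar differences. Among the 21, the difference had a median of -1.72 and a range of -2.46 to -0.86 on the later slides, and a median of -1.67 and a range of -2.22 to -0.78 on the early slides. Among the 5, the medians were 0.95 on the later and 1.07 on the early slides. The sign was the same on both in all 26. Arrays of the hybrids did not overlap at any of them, so this was fixed beforehand. The choice of features from all 8 arrays favours such a separation. Across all 6526 features the later and early differences correlated at 0.36 (Pearson) and 0.232 (Spearman), and at 0.263 (Pearson) over the 6500 features that were not called. These correlations are across features, which are not independent replicates. The SD over features was 0.204 on the later and 0.35 on the early slides. On the early slides hybrid and slide series cannot be told apart.

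**Figure D3:**
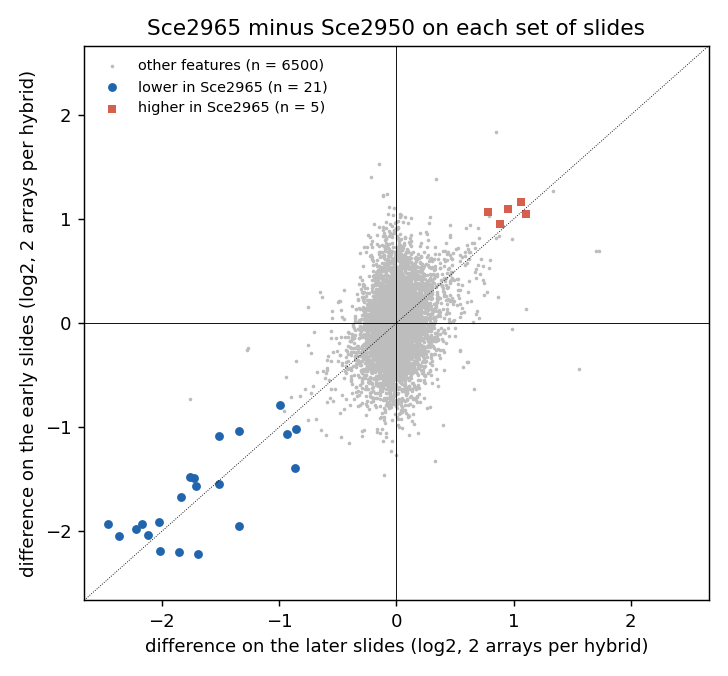
Difference of the log2 ratio, Sce2965 minus Sce2950, on the early slides (vertical axis) against the later slides (horizontal axis), 1 point per feature, with the 26 called features marked. The called features lie near the diagonal, with medians of -1.72 (later) and -1.67 (early) for the 21 lower ones, while the other features correlate at 0.263.

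A size over 1 on both sets of slides was reached by 20 features, with the same sign in all 20 and opposite signs in 0. Of these, 17 were lower in Sce2965, and 19 were among the 26 called. On the later slides alone 27 features had a size over 1, and on the early slides 66.

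The later slides hold both hybrids on slides of the same series, and the features called there can be followed on the early slides, which that fit did not use. This comparison was chosen after the values were seen. Of the 125 features, 67 were higher in Sce2965 (1.03% of 6498) and 58 lower (0.893%), and 608 (9.36%) had an unadjusted p under 0.05. On the early slides 62 of the 67 (92.5%) were again higher and 55 of the 58 (94.8%) again lower. Without the 26 features, 57 of 62 (91.9%) and 34 of 37 (91.9%) had the same sign, with median differences of 0.56 and -0.47 on the early slides and 0.63 and -0.65 on the later slides. Over all features the sign was the same for 57.4%. Brightness moved with this share: among features not called on the later slides it was 66.8% in the brightest of the 5 groups, which held 89 of the 125, and between 51.8% and 56.4% in the other groups. With 2 arrays per hybrid and a dye term the later fit has little to estimate its spread from, and no label says whether early and later arrays shared RNA.

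Dye orientation was balanced within each hybrid. Among the 21 features, the difference had a median of -1.51 from the arrays with the hybrids in Cy5 and -1.77 from those with the hybrids in Cy3. Among the 5, it was 0.88 in Cy5 and 1.08 in Cy3. The sign was the same with either dye in all 26. At spots 6263 and 6264 the difference was -2.14 in Cy5 and -2.27 in Cy3, and at spots 6163 and 6164 it was 0.85 and 1.31. Dye and log2 ratio moved together in the later series: arrays of different hybrids with the same dye correlated at 0.62 and 0.577 across features, and those of opposite dye at -0.604 and -0.586. Arrays of the same hybrid with opposite dye correlated at -0.377 in Sce2965 and -0.56 in Sce2950.

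The 2 spots of a feature gave similar differences. Among the 21, the odd spots gave a median difference of -1.64 and the even spots -1.73, and among the 5 the odd spots gave 0.91 to 1.14 and the even spots 0.92 to 1.10. On any array the log2 ratios of the 2 spots differed by at most 0.489 among these features. At spots 6263 and 6264 they differed by at most 0.0872, with differences between the hybrids of -2.20 and -2.21. Duplicate spots share the array, the RNA and the printed DNA, so they measure only the error of spotting and scanning.

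A ratio does not show whether the hybrid or the mix set it, so the channels were also compared singly: hybrid with hybrid, and mix with mix. On all slides 0 of 6498 features passed in limma between the hybrids, with 416 (6.4%) at an unadjusted p under 0.05, and 0 passed between the mixes, with 353 (5.43%). On the later slides 0 passed between the hybrids, with 309 (4.76%) at an unadjusted p under 0.05 and a smallest adjusted p of 0.195 in limma. Between the mixes 0 passed as well, with 216 (3.32%). With slide series as a fixed block 0 passed in either contrast, with 117 (1.8%) between the hybrids and 48 (0.739%) between the mixes at an unadjusted p under 0.05. The channel values below are therefore descriptions. They are given for the later slides because the brightness of features correlated at a median of 0.983 between arrays of the same series and 0.663 between arrays of different series. The early arrays of Sce2965 were an exception, at 0.717 with each other. The highest value between arrays of different series was 0.701.

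On the later slides the hybrids were further apart than the mixes at 19 of the 21 features lower in Sce2965. The hybrid contrast, RNA of Sce2965 minus RNA of Sce2950, was negative in all 21, from -2.33 to -0.38 with a median of -1.30. The mix contrast, mix of Sce2965 minus mix of Sce2950, was positive in 20 of the 21, from -0.11 to 0.82 with a median of 0.48. The hybrid contrast made up a median of 72.8% of the difference. An unadjusted p under 0.05 was reached by 19 of 21 between the hybrids and 6 of 21 between the mixes, against 4.76% and 3.32% of all features. Signs and p-values here follow in part from the choice of features by the difference of these contrasts. Over all features the hybrid contrast was also the wider, with an SD of 0.245 against 0.208 for the mix contrast. Over all slides the picture was less uniform: the hybrid contrast was negative in 18 of 21, from -2.55 to 0.71 with a median of -1.09, and the mix contrast positive in 18 of 21, from -0.59 to 2.25 with a median of 0.58. There the hybrid contrast was the larger in 14 of 21, with a median SE over all features of 0.42, against 0.172 on the later slides. The contrasts share spots and arrays, and across all features they correlated at 0.609, so they are not independent measurements.

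For the 5 features higher in Sce2965 neither contrast led throughout. The hybrid contrast was 0.04 to 0.84 with a median of 0.38, and the mix contrast -1.02 to -0.15 with a median of -0.45. The hybrid contrast was the larger in 2 of 5, and its share of the difference ranged from 3.49% to 84.4%. An unadjusted p under 0.05 was reached by 3 of 5 between the hybrids and 2 of 5 between the mixes, again among features chosen by the difference of these contrasts. Over all slides the hybrid contrast was -0.27 to 0.65, positive in 3 of 5, and the mix contrast was -1.19 to -0.38.

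**Figure D4:**
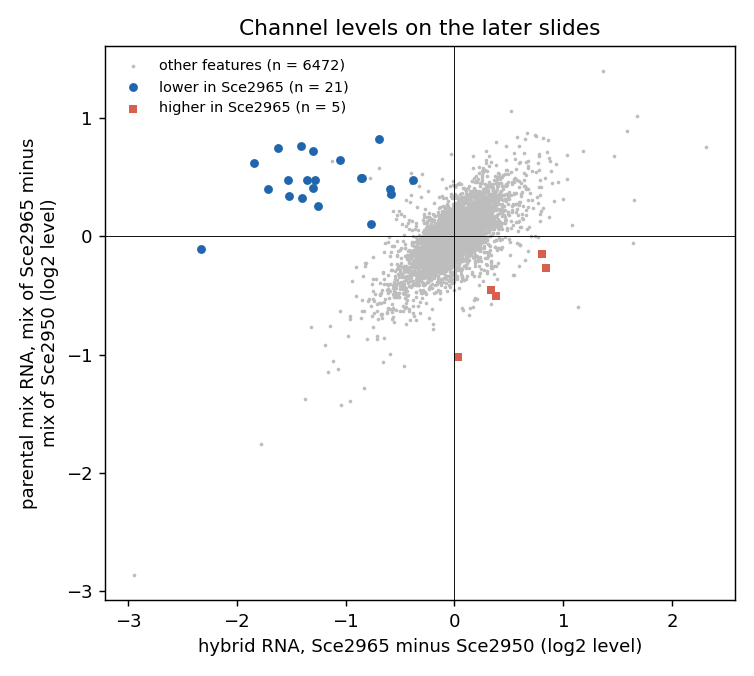
Mix contrast, mix of Sce2965 minus mix of Sce2950 (vertical axis), against hybrid contrast, Sce2965 minus Sce2950 (horizontal axis), in log2 units on the later slides, 1 point per feature. Other features run along a rising trend and the called ones lie off it, as their choice by the difference of these contrasts requires: the 21 lower features have hybrid contrasts of -2.33 to -0.38 and mix contrasts of -0.11 to 0.82, and the 5 higher features have hybrid contrasts of 0.04 to 0.84 and mix contrasts of -1.02 to -0.15.

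Single features show both kinds. At spots 6263 and 6264 the normalized log2 level in the hybrid channel was 10.18 and 10.84 in replicates 3 and 4 of Sce2965, against 11.95 and 12.31 in those of Sce2950, and in the mix channel it was 11.77 and 11.77 in the mix of Sce2965, against 11.30 and 10.75 in the mix of Sce2950. The hybrids were thus further apart than the mixes, by -1.62 (SE 0.204; limma adjusted p = 0.195) against 0.75 (limma adjusted p = 1.0). At spots 7349 and 7350 the contrasts were -1.84 between the hybrids (SE 0.207; limma adjusted p = 0.195) and 0.62 between the mixes.

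At spots 11281 and 11282 the mixes were further apart than the hybrids. The level in the hybrid channel was 12.76 and 12.23 in replicates 3 and 4 of Sce2965, against 12.62 and 12.30 in those of Sce2950. In the mix channel it was 11.99 and 11.52 in the mix of Sce2965, against 12.92 and 12.64 in the mix of Sce2950. The hybrid arrays overlapped and the mix arrays did not, with contrasts of 0.04 between the hybrids (SE 0.208; limma adjusted p = 0.999) and -1.02 between the mixes (unadjusted p = 0.00218 in limma, adjusted p = 1.0). At spots 6163 and 6164 the order was the other way, with 0.84 between the hybrids (SE 0.315; limma adjusted p = 0.98) and -0.26 between the mixes. A level here is RNA per labelled sample of a bulk culture, so a change in every cell and a change in a share of cells cannot be told apart.

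The 26 features kept the sign of their difference in all 29 other settings that were run, but many of these could not reverse it. Several left the estimates unchanged. With arrays left out or 1 set of slides, the lack of overlap between the hybrids fixed the sign. Over the 29 settings the median of the 21 lay between -1.78 and -1.42 and that of the 5 between 0.91 and 1.12. The number of features called ranged from 0 to 125. Single features shrank to as little as 0.269 of their difference in the authors' deposited table.

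**Figure D5:**
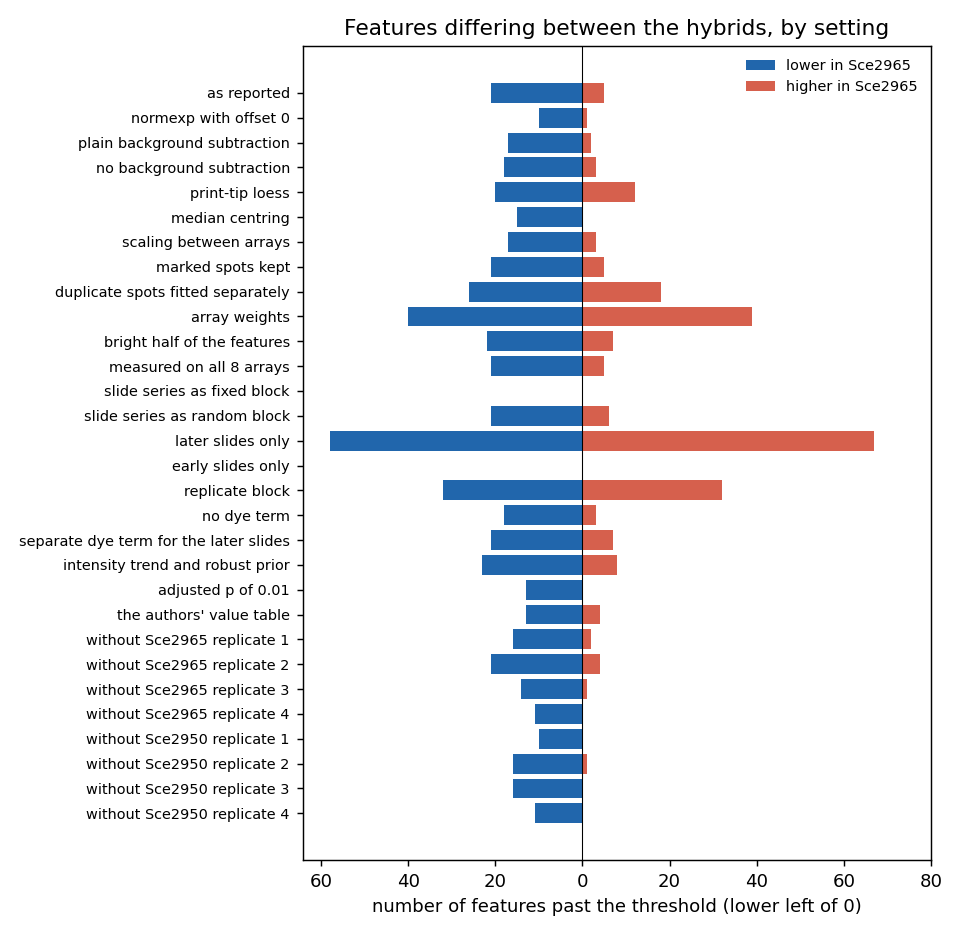
Number of features called higher and lower in Sce2965 (horizontal axis, features past the threshold in limma, bars to the right of 0 for higher and to the left for lower) in each setting, named on the vertical axis. The count is 26 as reported and ranges from 0, with slide series as a fixed block or the early slides alone, to 125, with the later slides alone.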

How the data were processed

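RNA of 2 hybrids was hybridised with a mix of parental RNA on 8 arrays. The authors' deposited scanner files give, for 13056 spots, an intensity and a local background per channel, without normalization, per the file headers. Channel 1 held the mix and channel 2 the hybrid, per the labels. The authors' deposited value table gives the log2 ratio of the hybrid to the mix; scale and direction were read from its correlation with recomputed ratios (0.962 to 0.997), how it was normalized is not stated in the labels or files, and it served as an alternative. The median of its columns, replicates 1 to 4, was 0.000977, -0.00145, -0.00322 and 0.00333 in Sce2965 and 0.00464, -0.00616, -0.00276 and 0.00835 in Sce2950.

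Background was corrected by normexp with offset 50, which adds a constant before logs and shrinks ratios of dim spots. Global loess normalized the ratios array by array. Spots marked to be ignored were left out, duplicate spots were averaged, and features with values on 3 or more arrays per hybrid were kept. limma 3.58.1 (R 4.3.3) took all 8 arrays together, with a coefficient per hybrid and a shared dye coefficient, with empirical Bayes moderation (5 residual and 5.5 prior degrees of freedom), two-sided tests and Benjamini-Hochberg adjustment over 6526 features. Single channels were compared by limma's separate-channel model after Aquantile normalization (intraspot correlation 0.869 on all slides and 0.921 on the later slides, statmod 1.5.0). The same fits were run on simulated arrays with known differences. The simulated arrays were independent and had no slide series effect, so they do not show how the calls behave with one. Figures were drawn with matplotlib 3.10.9.

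The local background was above 0 at all spots of the later slides. On the early slides it was above 0 at 67.8% of spots in the hybrid channel of replicate 2 and 22.2% in the mix channel of replicate 1 of Sce2965, and 0 elsewhere, so background correction acted unevenly between slides. Early slides had larger gaps between duplicate spots, with a median of 0.179 to 0.242 in log2 ratio, against 0.0583 to 0.0612 on the later slides. The labels call the arrays independent replicates and tie none to a separate culture, so the p-values rest on the spread among these arrays, which may in part be technical. Up to 59 spots per array were marked and up to 168 spots in a channel had an intensity of 0. The number of arrays limits the precision.

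The comparison and its lists were chosen with earlier results of these data known. The named features are the 2 largest differences in each direction among called features whose arrays did not overlap between the hybrids. No table pairs spots with genes, so lists of genes planned for description were not used here, and control spots were not separated from the rest. Slide series were read from the leading digits of slide numbers in the titles. Alternatives covered background, normalization, filters, duplicate spots, weights, slide series, dye, replicate number, moderation, threshold, the authors' table and each array left out.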

Additional observations from a re-analysis of the deposited data

Results flagged for a closer look

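At spots 6263 and 6264 in Sce2965, replicate 3 stood apart: at a log2 ratio of -1.59 its gap to the nearest array was 0.83 of the whole range of the 4 arrays. Of the groups checked, 8 in all, this was the one set apart, and chance sets apart about 1 in 20 groups of this size. The same array was also the lowest of Sce2965 at spots 7349 and 7350. There it lay at -1.78, with the nearest array at -0.84, and was not set apart by this rule. Without replicate 3 of Sce2965 the direction of the difference at spots 6263 and 6264 was the same, which the lack of overlap between the hybrids fixes beforehand.

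The departures of Sce2965 and Sce2950 from their mixes differed at the 4 named features when the difference was tested in limma without slide series; with slide series as a fixed block none of the 4 passed, at adjusted p between 0.218 and 1.0 in limma. Sce2965 minus Sce2950 gave a log2 difference of -2.21 for spots 6263 and 6264 and of -2.20 for spots 7349 and 7350. It gave 1.11 for spots 11281 and 11282 and 1.08 for spots 6163 and 6164.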

How the results depend on the processing

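Of 29 other settings, 13 kept the number of differing features within 1.5 times the 26 reported. The count was 11 with normexp at offset 0 (1 higher, 10 lower), 15 with median centring, 44 with duplicate spots fitted separately (18 higher, 26 lower), 79 with array weights (39 higher, 40 lower), 0 with slide series as a fixed block, 125 with the later slides alone, 0 with the early slides alone, 13 at an adjusted p of 0.01 (0 higher) and 17 in the authors' table. Leaving out 1 array gave 10 to 25. With the replicate number as a block it was 64 (32 higher, 32 lower). Arrays with the same number correlated at -0.11, 0.0542, 0.663 and 0.655 in their deviations from the hybrid means. Such arrays had the same hybrid dye at numbers 3 and 4 and opposite dyes at 1 and 2. These values therefore cannot show whether the numbers pair the arrays. The number of features above or below the mix in either hybrid, 30 as reported, was 0 with offset 0, 19 with plain background subtraction, 89 with loess within print blocks, 2 with median centring, 94 with separate duplicate spots, 163 with array weights, 62 with the brighter features only, 78 with slide series as a random block, 286 on the later slides, 0 on the early slides, 54 when the later slides had their own dye term, 62 with a trended robust prior and 8 at an adjusted p of 0.01. Leaving out 1 array gave 8 to 32. The replicate block and the fixed block were run for the difference between the hybrids alone and not for that count. Between single channels, where 0 features passed, the replicate block gave 5 between the hybrids and 4 between the mixes, and leaving out 1 array gave 0 throughout. None of the named differences changed sign (0 in 29 settings each), though several settings left the estimates unchanged and could not reverse one. The fixed block and the later slides alone gave the called features the same differences, with another estimate of error. Beyond that, the cause of these changes was not tested. Settings with fewer arrays have fewer samples to call from, and the part of this in their counts was not tested. The later slides alone, with fewer arrays, gave more features (125). In the dimmest 3 of 5 brightness groups 0 features passed; the part of signal over background in this was not tested.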

Other observations

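A further 5 features had an estimated difference over 1 in size and did not pass, 4 of them higher and 1 lower in Sce2965. Their SE ranged from 0.259 to 0.391, against a median of 0.176 among the 26 called features, and their limma adjusted p ranged from 0.16 to 0.916. The largest of these differences was 1.34 in size, above the 1.11 of the largest called one in the higher direction. 1 of the 5 had a size over 1 on both the early and the later slides.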
